A study of Homo sapiens with 12 samples.

Results

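The genes described here are the histone genes detected in RNA-seq libraries of HEK293, an established human embryonic kidney cell line. A gene was taken when its symbol began with HIST1H to HIST4H, or was one of 9 replacement histone genes (H1F0, H1FX, H2AFJ, H2AFX, H2AFZ, H2AFV, H2AFY, H3F3A and H3F3B), and when it had at least 10 counts summed over the 12 libraries. The rule gave 58 of the 56634 genes in the count table: 49 HIST1-4 genes, of which 42 code for a histone and 7 are pseudogenes, and the 9 replacement genes. The table held 89 HIST1-4 rows, of which 40 fell under the minimum and 21 of these were at 0. The lowest gene taken had 10 counts and the highest row left out had 9.

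The study compared 4 treatments of 3 h in all, each in 3 libraries labelled as biological replicates of the same line. The DMSO group received 0.1% DMSO, the solvent. The SnxB group received 1 µM Senexin B, which blocks CDK8 and CDK19, the kinases of the Mediator complex. The TNF group was kept in 0.1% DMSO for 1 h before 10 ng/mL TNF-α, an inflammatory cytokine, was added for 2 h. The TNF_SnxB group was kept in 1 µM Senexin B for 1 h before the same cytokine was added for 2 h. All groups were the same unmodified line in 1 kind of culture, so p-values measure the spread between replicates of this line. The comparisons ask how blocking these kinases alters transcription in resting and in cytokine-treated cells.

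Histones are the proteins around which DNA is wound, in 4 core families (H2A, H2B, H3 and H4) with a linker family, H1. Replication-dependent histone genes lie in clusters and are transcribed in S phase, and their mRNAs normally end in a conserved stem-loop in place of a poly(A) tail. The stem-loop is bound by SLBP. Replacement histone genes are expressed through the cell cycle, have introns in most cases and give polyadenylated mRNAs. The libraries were made with the Illumina TruSeq RNA kit, whose standard protocol selects RNA with a poly(A) tail, although the labels do not state that step. HIST1-4 reads in such libraries therefore come from transcripts that carry a tail, or from tailless RNA carried through the selection.

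The 3′ ends of the gene models bear on both sources, and those of the genes described most below are shown first. Each stem-loop is given as 26 bases of the RNA strand written as DNA, from GENCODE release 29, with the 16-base core in capitals.
HIST2H2BE: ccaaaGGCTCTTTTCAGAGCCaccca
HIST1H2AC: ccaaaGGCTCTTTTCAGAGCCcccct
HIST3H2A: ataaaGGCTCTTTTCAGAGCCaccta
HIST1H4B: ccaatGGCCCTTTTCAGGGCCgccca
HIST1H4I: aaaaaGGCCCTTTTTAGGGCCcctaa
H2AFX: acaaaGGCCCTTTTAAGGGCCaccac
The cores of HIST2H2BE, HIST1H2AC and HIST3H2A have the same letters, which were the commonest form (13 of 24 coding HIST1-4 genes with a core, in 6 different forms). H2AFX was the only replacement gene with a stem-loop.

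Further downstream the models of HIST2H2BE, HIST1H2AC and HIST3H2A carried a poly(A) signal, the hexamer that directs cleavage and tailing, while those of HIST1H4B and HIST1H4I did not. The windows below show it in capitals, with 10 bases on each side, next to those of a pair of replacement genes.
HIST2H2BE: tattgttattAATAAAgttaccaatt
HIST1H2AC: ggcatgaggtAATAAAaggtaatgca
HIST3H2A: tttatctgatATTAAAagtatttatg
H1F0: aaaactttaaAATAAAttggaaaagg
H2AFZ: ggataagttcAATAAAggtcatatcc
The HIST2H2BE model ran on for 1729 bases after its stem-loop, that of HIST1H2AC for 1128, that of H2AFX for 1044 and that of HIST3H2A for 390. In these models the stem-loop thus lies inside a longer annotated transcript.

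The core was searched as GGNNCTTNTNANNGCC on the transcript strand after the stop codon. It was found in 24 of the 42 coding HIST1-4 genes, with a median of 36.0 bases between the stop codon and the core (24 to 67). Over all coding genes it was found in 65 of 20351 (0.319%). Of the 18 coding HIST1-4 genes without it, 15 have models that end within 5 bases of the stop codon, so their 3′ ends were not in the annotation used here. A poly(A) signal, AATAAA or ATTAAA in the last 40 bases of a coding transcript, was found in 16 of the 42 coding HIST1-4 genes, in 8 of the 9 replacement genes (not H2AFY) and in 79.6% of all coding genes. The stem-loop and the signal occurred together in 15 coding HIST1-4 genes. Most coding HIST1-4 genes had 1 exon (31 of 42), against 2 of the 9 replacement genes. Of the 42, 32 lie on chromosome 6 between 26020490 and 27893843 (GRCh38), 9 on chromosome 1 and 1 on chromosome 12.

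The regions just upstream of the start sites shared sequence features as well. Those of HIST2H2BE and HIST1H2AC, the HIST1-4 genes with the largest called decreases under Senexin B alone, are shown for the 200 bases before the RefSeq start site (GRCh38.p14), in the direction of transcription. Capitals mark the CCAAT box, the TATAAA box and the octamer ATTTGCAT, on either strand.
HIST2H2BE, chr1:149886683-149886882, minus strand: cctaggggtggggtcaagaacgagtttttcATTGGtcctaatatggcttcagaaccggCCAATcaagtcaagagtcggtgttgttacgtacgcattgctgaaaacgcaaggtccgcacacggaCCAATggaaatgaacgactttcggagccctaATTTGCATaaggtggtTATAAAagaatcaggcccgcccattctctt
HIST1H2AC, chr6:26123972-26124171, plus strand: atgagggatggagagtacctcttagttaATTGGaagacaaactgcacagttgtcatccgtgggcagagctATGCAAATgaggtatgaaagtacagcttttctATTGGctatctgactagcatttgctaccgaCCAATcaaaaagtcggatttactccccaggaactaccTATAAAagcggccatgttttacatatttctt
RefSeq promoters of 300 bases (250 before and 50 after the start) were matched for 45 of the 58 genes. CCAAT was present in 31 of 37 HIST1-4 promoters, against 34.6% of all 35116 promoters. TATAAA was present in 25 of 37, against 11.5%. The octamer was present in 16 of 37, and in 9 of the 13 H2B promoters, against 1.77%. The 37 include both genes of 6 pairs read in opposite directions from starts 230 to 248 bases apart. The windows of such a pair largely overlap, so the same letters can count for both genes. Of the 8 replacement promoters, 6 held CCAAT, 4 TATAAA and 1 the octamer. The promoter of HIST3H2A, also called lower under Senexin B alone, held CCAAT but neither TATAAA nor the octamer. No promoter was matched for H1F0. These matches are letters in a window and not sites shown to be bound, and a link to the Senexin B changes was not tested.

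The libraries held 8705277 to 50943310 counts, TNF replicate 2 being the deepest and the other 11 holding at most 13818638. HEK293 was represented by NEFL, KRT8, KRT18, VIM and LHX1, which were present in every library, while PAX2 reached at most 1.33 CPM (counts per 1000000, with TMM scaling) and NEFM at most 0.880 CPM. Of 10 markers of leukocytes, endothelium and fibroblasts, CD3E, CDH5 and DCN were at 0 in all libraries and only COL1A1 (mean 14.8 CPM) and COL3A1 (1.52 CPM) exceeded 1 CPM. TNF_SnxB replicates 2 and 3 stood apart from the other 10 libraries. Their deviation from the mean of all libraries fell with the GC content of the transcript, with a Spearman correlation across 13464 genes of -0.69 in each, against -0.12 to 0.45 in the others. Results that rest on the TNF_SnxB group are therefore also given from replicate 1 alone, and with offsets for GC content and length. In bulk RNA, fewer cells in a phase and less RNA per cell cannot be told apart.

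Replacement genes made up most of the histone counts in these libraries. Where RNA with a poly(A) tail is selected, tailless HIST1-4 mRNA is counted only in part, so the sums are not shares of all histone mRNA in the cells. Summed over the 9 genes, they reached 2780 ± 28.6 CPM (SD, n = 3) in the DMSO group, and the 49 HIST1-4 genes reached 294 ± 7.08 CPM. HIST1-4 genes supplied between 8.67% (95% Clopper-Pearson interval 8.39 to 8.96%) and 9.84% (9.51 to 10.2%) of histone counts in the 12 libraries. Intervals and floors cover counting error only. Within the classes a few genes dominated: HIST1H2BK, HIST3H2A, HIST1H1C, HIST1H4I and HIST1H2AC held 73.8% of HIST1-4 CPM, and H2AFZ, H3F3B and H2AFY held 67.5% of replacement CPM.

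Levels between genes were compared per kilobase of annotated exon in the DMSO group. In the H2A family H2AFZ, which encodes H2A.Z, stood highest at 316 ± 12.1 CPM per kb (SD, n = 3) and HIST3H2A was the highest HIST1-4 gene at 46.1 ± 2.18. In the H3 family H3F3B, one of the pair of genes for H3.3, stood at 116 ± 1.19 and H3F3A, the other, at 31.9 ± 0.472, while the highest HIST1-4 gene, HIST1H3H, stood at 4.66 ± 0.172. Among linker histones H1FX stood at 112 ± 4.79, H1F0 at 90.1 ± 3.46 and HIST1H1C, which encodes H1.2, at 55.0 ± 3.20. The replacement set used here has no H2B or H4 gene, and in these families HIST1H2BK stood highest at 222 ± 9.56 and HIST1H4I at 26.3 ± 1.89. The models of HIST1H2BK (381 bases) and HIST1H1C (642 bases) hold coding sequence only, so their per-kilobase values would be lower over a longer transcript. HIST1H2BK also shares 74.1% of its 50-base words with transcripts of other genes, mainly H2BFS, and its count is uncertain for that reason. In the plot of levels by family H1FX and H1F0, H3F3B and H3F3A, and H2AFZ and H2AFX lie above every HIST1-4 gene of their family. H2AFV (37.2 CPM per kb), H2AFY (23.0) and H2AFJ (3.81) lie below HIST3H2A. Exon length was taken over all annotated transcripts, which for H2AFY gave 17730 bases from 20 transcripts, against 895 for HIST3H2A. Values of genes with many transcripts are lowered by this. Without division by length the DMSO means were 408 CPM for H2AFY, 177 for H2AFV, 12.8 for H2AFJ and 41.2 for HIST3H2A.

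**Figure D1:**
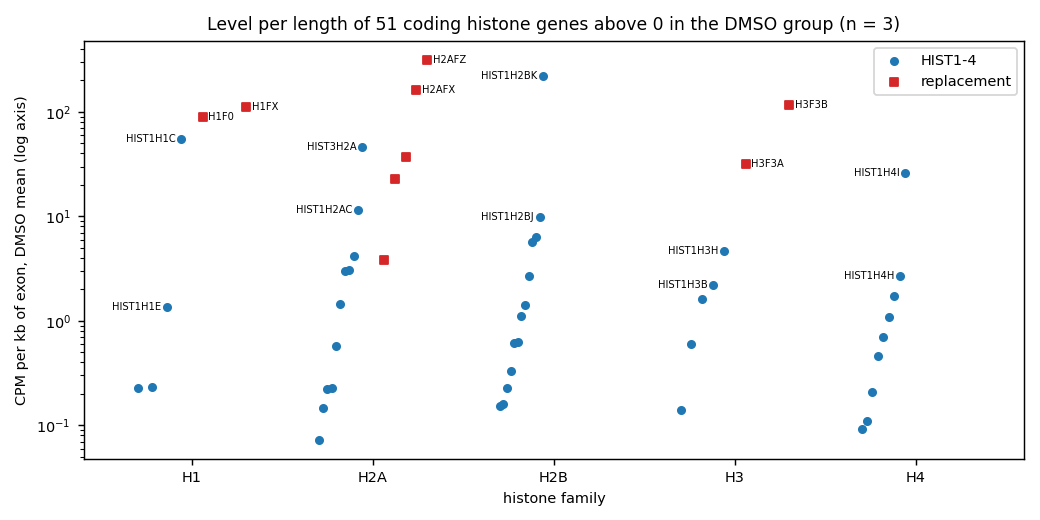
Mean level of each coding histone gene in the DMSO group (n = 3), in CPM per kilobase of exon on a log axis, by histone family; blue circles are HIST1-4 genes and red squares replacement genes, and the 2 highest of each class are named. H2AFZ (316) and HIST1H2BK (222) are the highest points, and most HIST1-4 genes lie below 10.

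Levels of the HIST1-4 genes also differed with the annotated 3′ end. Per kilobase of exon in the DMSO group, the 16 coding genes with a poly(A) signal had a median level of 2.70 CPM per kb (0.16 to 46.1), the 26 without one 0.605 (0.073 to 222) and the 7 pseudogenes 0.369 (0.177 to 0.636). No test was made, since gene models that end at the stop codon fall into the second group whatever their true end. Its 3 highest genes were HIST1H2BK, HIST1H1C and HIST1H4I, and the other 23 summed to 13.0 ± 2.90 CPM (SD, n = 3) in the DMSO group.

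Of the 58 genes, 34 passed the filter on low counts and were tested, 25 HIST1-4 and all 9 replacement genes. The 24 HIST1-4 genes that did not pass held 2.12% of the HIST1-4 CPM. Of the 34, 26 exceeded the filter's minimum in all 12 libraries, and none exceeded it in 1 group only. Over 50% of the 50-base words are shared with other transcripts in 9 of the 58, whose counts are uncertain: HIST1H2BK, HIST1H2AI, HIST2H4A and HIST2H2BD, which were tested, and HIST2H2BA, HIST2H3DP1, HIST2H3D, HIST2H2AA3 and HIST1H1PS1, which were not.

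Senexin B alone lowered 5 histone genes and raised none. H1F0 fell most surely, to 0.709 of its DMSO level, and HIST2H2BE furthest, to 0.591. HIST1H2AC, HIST3H2A and H2AFZ fell to 0.696, 0.785 and 0.888. By edgeR's quasi-likelihood test, with Benjamini-Hochberg adjustment over all 14822 tested genes and a threshold of 0.05, these were 5 of 34 histone genes. Over all tested genes 2.03% were called in either direction and 1.69% lower.

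H1F0 encodes the linker histone H1.0, a replacement form that accumulates in differentiated and resting cells (ENSG00000189060.5, GRCh38 chromosome 22, 37805093 to 37807436). Its level was 219.8, 203.7 and 210.1 CPM in DMSO replicates 1 to 3, 148.5, 147.8 and 153.2 in SnxB, 182.8, 189.1 and 187.4 in TNF, and 140.5, 134.4 and 142.4 in TNF_SnxB. The DMSO libraries were the highest, the TNF libraries came next, and both Senexin B groups lay below every library without the inhibitor. The log2 change in SnxB against DMSO was -0.50 (SE 0.0424, edgeR adjusted p = 1.3e-09).

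HIST2H2BE encodes an H2B and is known for an mRNA that is polyadenylated in cells leaving the cycle (ENSG00000184678.10, chromosome 1, 149884459 to 149886652). It stood at 14.5, 12.5 and 10.4 CPM in DMSO, 6.38, 7.29 and 8.36 in SnxB, 10.5, 11.3 and 12.2 in TNF, and 8.67, 6.62 and 6.58 in TNF_SnxB. The libraries with and without Senexin B did not overlap, although the DMSO libraries were spread. The log2 change in SnxB against DMSO was -0.76 (SE 0.138, edgeR adjusted p = 0.000962).

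HIST1H2AC encodes an H2A (ENSG00000180573.9, chromosome 6, 26124145 to 26139116). It stood at 18.2, 19.2 and 20.4 CPM in DMSO, 12.2, 13.9 and 14.1 in SnxB, 18.1, 17.3 and 19.7 in TNF, and 12.1, 13.6 and 15.4 in TNF_SnxB. Again no library with the inhibitor reached one without it. The log2 change in SnxB against DMSO was -0.52 (SE 0.101, edgeR adjusted p = 0.00214).

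HIST3H2A encodes an H2A outside the large clusters (ENSG00000181218.5, chromosome 1, 228456979 to 228457873). It stood at 41.8, 42.8 and 39.1 CPM in DMSO, 29.7, 29.8 and 37.5 in SnxB, 45.0, 39.9 and 41.4 in TNF, and 30.1, 27.4 and 29.1 in TNF_SnxB. SnxB replicate 3 lay close to the lowest DMSO library. The log2 change in SnxB against DMSO was -0.35 (SE 0.0786, edgeR adjusted p = 0.011), and the call was lost without DMSO replicate 1, DMSO replicate 2, SnxB replicate 1 or SnxB replicate 2 (adjusted p up to 0.147).

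H2AFZ encodes H2A.Z, the variant placed around active start sites (ENSG00000164032.11, chromosome 4, 99948086 to 99950388). It stood at 751, 696 and 733 CPM in DMSO, 638, 659 and 640.4 in SnxB, 704, 721 and 724 in TNF, and 637, 683 and 646 in TNF_SnxB. The decrease was small and the groups did not overlap: the log2 change in SnxB against DMSO was -0.17 (SE 0.0341, edgeR adjusted p = 0.00301).

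**Figure D2:**
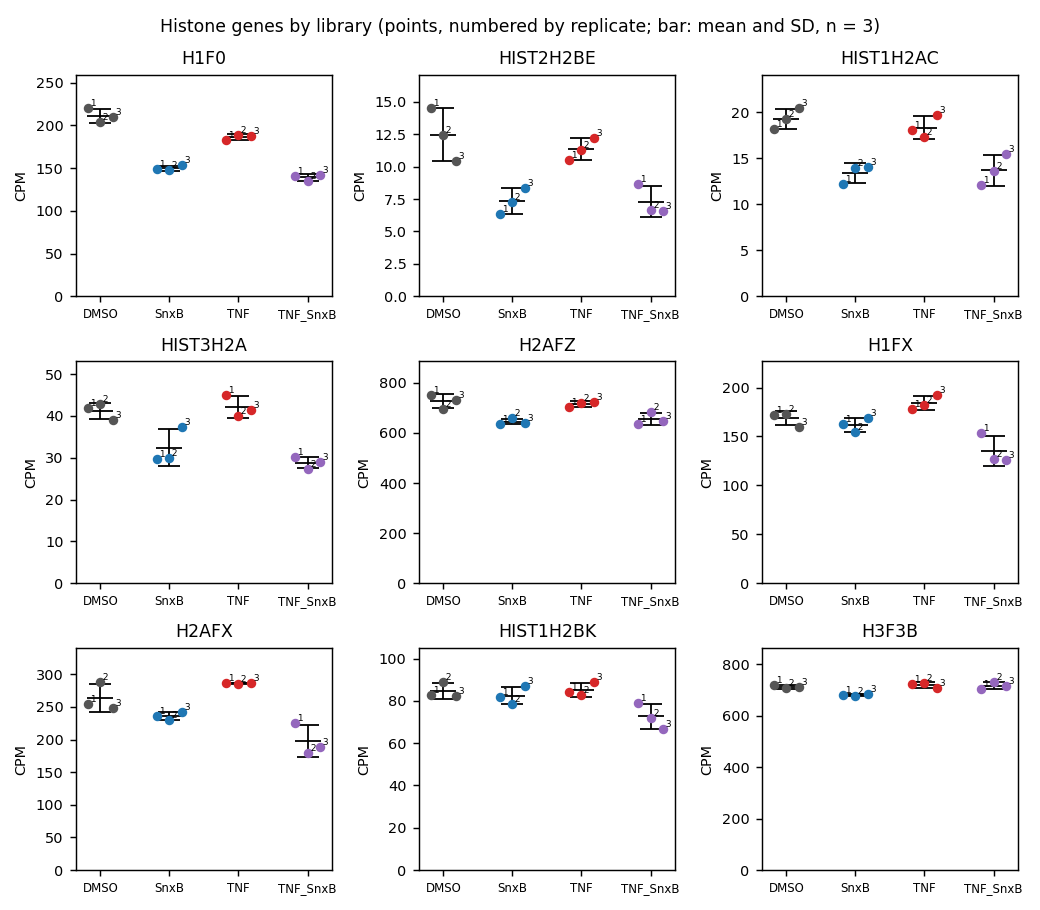
CPM of 9 histone genes in each library (points, numbered by replicate) with the group mean and SD (n = 3); each vertical axis starts at 0. H1F0, HIST2H2BE, HIST1H2AC, HIST3H2A and H2AFZ are lower in both Senexin B groups than in the groups without it, and for H1FX and H2AFX the lowest points are TNF_SnxB replicates 2 and 3.

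The remaining genes of SnxB against DMSO did not pass the test. Among HIST1-4 genes, 21 of 25 log2 changes were below 0 and their median was -0.34, beside 49% below 0 and a median of 0.00 over all genes. The 14 tested coding genes with a poly(A) signal had a median of -0.35 with 3 called, and the 9 without one a median of -0.09 with none called by edgeR and 1 at an unadjusted p under 0.05. This difference between the forms was not tested, and models that end at the stop codon, such as HIST1H2BK and HIST1H1C, count as without a signal whatever their true end. HIST1H2AG (-0.54, edgeR adjusted p = 0.0522), HIST1H4H (-0.54, adjusted p = 0.118) and HIST1H2BJ (-0.51, adjusted p = 0.134) were the nearest to a call. The replacement genes other than H1F0 and H2AFZ had log2 changes between -0.16 (H2AFX, edgeR adjusted p = 0.217) and 0.02 (H2AFY). With the offsets for GC content and length 11 genes were called lower, the added ones being H1FX, HIST1H4H, HIST1H2BJ, HIST1H2AG, H2AFX and H3F3B, in a fit that called 6.08% of all genes and 5.31% lower. Without TNF_SnxB replicates 2 and 3 in the fit 10 were called lower, beside 5.66% of all genes called and 4.08% called lower. Without TNF_SnxB replicate 1 there were also 10, beside 5.82% and 4.18%.

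Summed over the class, HIST1-4 genes stood at 291, 302 and 289 CPM in DMSO and 247, 246 and 270 in SnxB. Replacement genes stood at 2813, 2767 and 2761 CPM in DMSO and 2551, 2575 and 2575 in SnxB. Neither sum overlapped between the groups. Most of the HIST1-4 difference lay in the 16 genes with a poly(A) signal, at 125, 124 and 122 CPM in DMSO against 87.8, 89.2 and 106 in SnxB, with means of 123.4 and 94.3. The 26 without one stood at 164, 174 and 163 against 157, 155 and 162, with means of 167 and 158. In this sum SnxB replicate 3 reached almost to the lowest DMSO library. HIST1H2BK and HIST1H1C, with DMSO means of 84.7 and 35.3 CPM, held much of it. Their models end at the stop codon, so whether they carry a signal is not known here, and the difference between the forms was not tested. The sums of 10 RNAs without a tail, such as RN7SK and RN7SL1, overlapped between the groups, at 48.8, 17.1 and 8.71 CPM in DMSO and 14.8, 49.7 and 50.8 in SnxB.

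**Figure D3:**
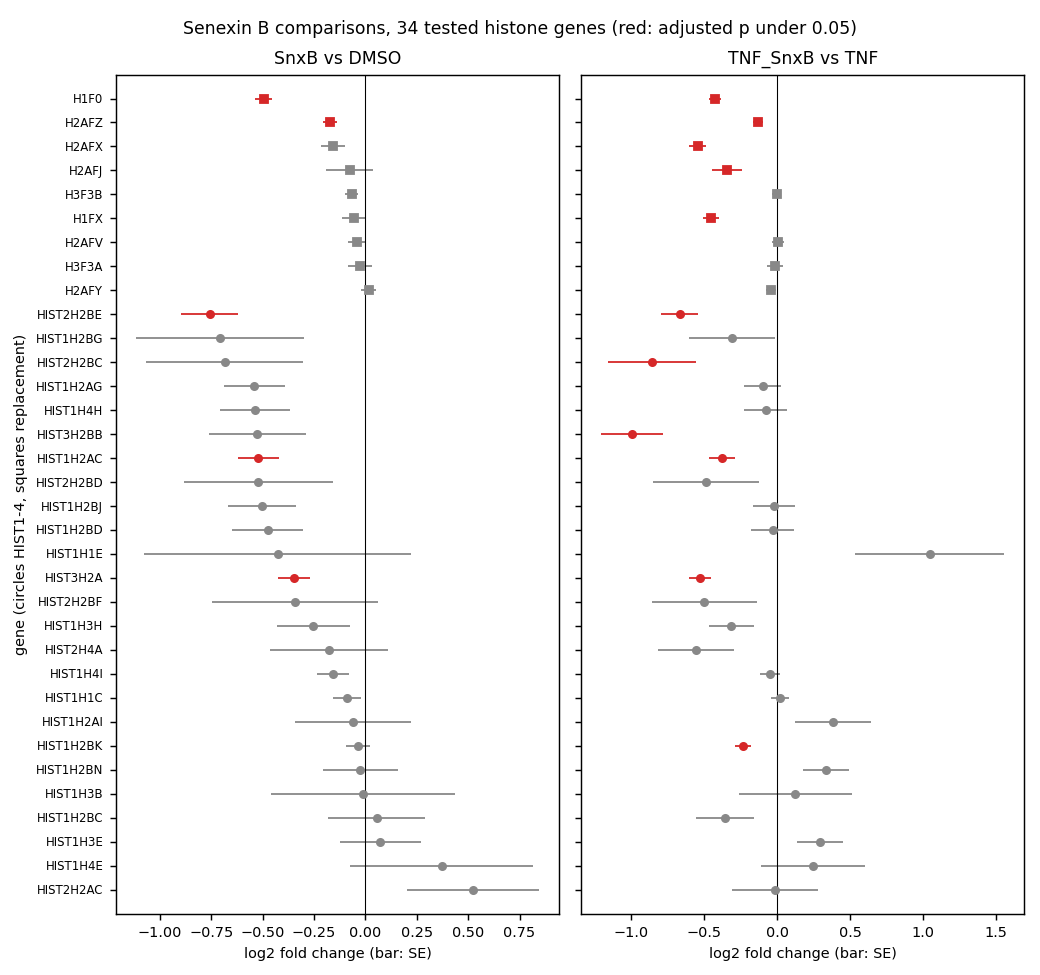
Log2 fold change with its SE for the 34 tested histone genes, in SnxB against DMSO on the left and in TNF_SnxB against TNF on the right; circles are HIST1-4 genes, squares replacement genes, and red marks an edgeR adjusted p under 0.05. All red points lie below 0, 5 on the left and 11 on the right.

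Some histone genes are read in opposite directions from 1 promoter region, and 6 pairs of the genes described here have start sites 230 to 248 bases apart. Under Senexin B alone HIST2H2BE was called lower (-0.76), and its neighbour HIST2H2AC, at a mean of 1.37 CPM, had a log2 change of 0.52 (edgeR adjusted p = 0.57). In TNF_SnxB against TNF the pair had -0.67 and -0.01. HIST1H2AC (-0.52, called) is beside HIST1H2BC, at 2.36 CPM, which had 0.06 (edgeR adjusted p = 0.968), and in TNF_SnxB against TNF the pair had -0.38 and -0.36. HIST3H2A and HIST3H2BB had -0.35 and -0.53 under Senexin B alone (edgeR adjusted p = 0.351 for HIST3H2BB), and -0.53 and -0.99 against TNF. HIST1H2BJ and HIST1H2AG had -0.51 and -0.54, and -0.02 and -0.10 against TNF, with no call when all libraries were fitted without offsets. The differences within pairs were not tested, and the neighbours of the called genes were the lower ones in level.

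TNF-α alone changed 1 histone gene by this test: H1F0 fell to 0.884 of its DMSO level (log2 -0.18, SE 0.0403, edgeR adjusted p = 0.00999). This was 1 of 34, beside 2.02% of all genes called and 0.594% called lower. The 3 TNF libraries lay below the 3 DMSO libraries, but the call was lost when DMSO replicate 1 or any 1 of the TNF replicates was left out (adjusted p up to 0.156). H1FX and H2AFX had log2 changes of 0.13 and 0.12 (adjusted p = 0.368 and 0.445), and both were called higher when TNF_SnxB replicates 2 and 3 were left out of the fit (0.13, adjusted p = 0.00291, and 0.12, adjusted p = 0.00169), in a fit that called 5.62% of all genes. With the offsets for GC content and length they had 0.02 (adjusted p = 0.864) and 0.03 (adjusted p = 0.745). The GC trend was 0.39 to 0.45 in the TNF libraries and -0.12 to 0.32 in the DMSO libraries. The median was -0.10 over the 25 HIST1-4 genes and 0.01 over the replacement genes, beside 0.00 over all genes. Of the 25 HIST1-4 genes none was called by edgeR and 2 had an unadjusted p under 0.05. The sum of HIST1-4 genes was 284, 279 and 290.4 CPM in TNF, with its highest library between the DMSO libraries.

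In cells given TNF-α, Senexin B was accompanied by lower levels of 11 of the 34 histone genes and by higher levels of none. They were H1F0, H1FX, H2AFX, H2AFZ, H2AFJ, HIST1H2AC, HIST2H2BE, HIST2H2BC, HIST3H2A, HIST3H2BB and HIST1H2BK. In this comparison 27.2% of all genes were called and 13.9% were called lower, so the background is high. The GC trend of TNF_SnxB replicate 1 was 0.135, among those of DMSO and SnxB but below the 0.385 to 0.453 of the TNF libraries. A difference in GC trend thus remained in the comparison of replicate 1 with TNF, and its part was not tested. From TNF_SnxB replicate 1 alone the 11 log2 changes lay between -0.64 and -0.10. HIST2H2BE, HIST2H2BC, HIST3H2BB, HIST1H2BK and H2AFJ were no longer called there. That library held 249 CPM of 10 RNAs without a tail, against 8.71 to 50.8 CPM in the others. In the same fit HIST1H4B, HIST1H1E and HIST1H4C had log2 changes of 3.85, 2.44 and 2.32. HIST1H4B and HIST1H4C passed its filter only through that library. That fit called 2.64% of all genes, 1.91% lower, and assumes that the single library varies like the other groups. With the offsets 10 of the 11 were called lower (not HIST1H2BK), with H2AFY, H2AFV and H3F3A added, beside 12.8% of all genes called and 9.8% called lower.

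H1F0 fell by 0.43 on the log2 scale (SE 0.0415, edgeR adjusted p = 1.61e-08), by 0.42 from replicate 1 alone and by 0.36 with the offsets. HIST3H2A fell by 0.53 (SE 0.0728, edgeR adjusted p = 8.42e-06), by 0.45 from replicate 1 alone and by 0.43 with the offsets. HIST1H2AC fell by 0.38 (SE 0.0903, adjusted p = 0.00316) and H2AFZ by 0.13 (SE 0.0336, adjusted p = 0.0059), with decreases of 0.57 and 0.17 from replicate 1 alone and of 0.47 and 0.13 with the offsets. These 4 genes thus fell in both Senexin B comparisons, which share no library. HIST2H2BE fell by 0.67 (SE 0.124, adjusted p = 0.000347), but from replicate 1 alone, at 8.67 CPM, its value was -0.39 (adjusted p = 0.29), and with the offsets -0.68 (adjusted p = 2.45e-05).

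H1FX and H2AFX were replacement genes whose TNF_SnxB libraries differed from each other (SD 15.5 and 24.3 CPM, n = 3). H2AFX encodes H2A.X, which is phosphorylated at DNA breaks and is the replacement gene that keeps a stem-loop (ENSG00000188486.3, chromosome 11, 119093854 to 119095467). It stood at 254, 288 and 248 CPM in DMSO, 236, 230.1 and 242 in SnxB, 286, 285 and 287 in TNF, and 225, 179 and 188 in TNF_SnxB. H1FX encodes a linker histone, H1.10 (ENSG00000184897.5, chromosome 3, 129314771 to 129316277). It stood at 172, 173 and 160.1 CPM in DMSO, 163, 155 and 169 in SnxB, 178, 183 and 192 in TNF, and 153, 127 and 126 in TNF_SnxB. In both genes TNF_SnxB replicates 2 and 3 were the lowest of all 12 libraries and replicate 1 came next.

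The transcripts of these 2 genes have GC contents of 66.4% (H2AFX) and 68.6% (H1FX). Against TNF, H2AFX fell by 0.54 (SE 0.0568, edgeR adjusted p = 6.22e-08), by 0.35 from replicate 1 alone and by 0.28 with the offsets. H1FX fell by 0.45 (SE 0.0555, edgeR adjusted p = 1.32e-06), by 0.26 from replicate 1 alone and by 0.14 with the offsets. All of these remained below the threshold of 0.05 in adjusted p. H1FX overlaps the antisense gene H1FX-AS1, and without a stated strand setting reads of the pair cannot be told apart. The same limit holds for H2AFZ, H2AFY and H3F3A, among others, which overlap AC097460.1, C5orf66 and AL512343.2 on the opposite strand.

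**Figure D4:**
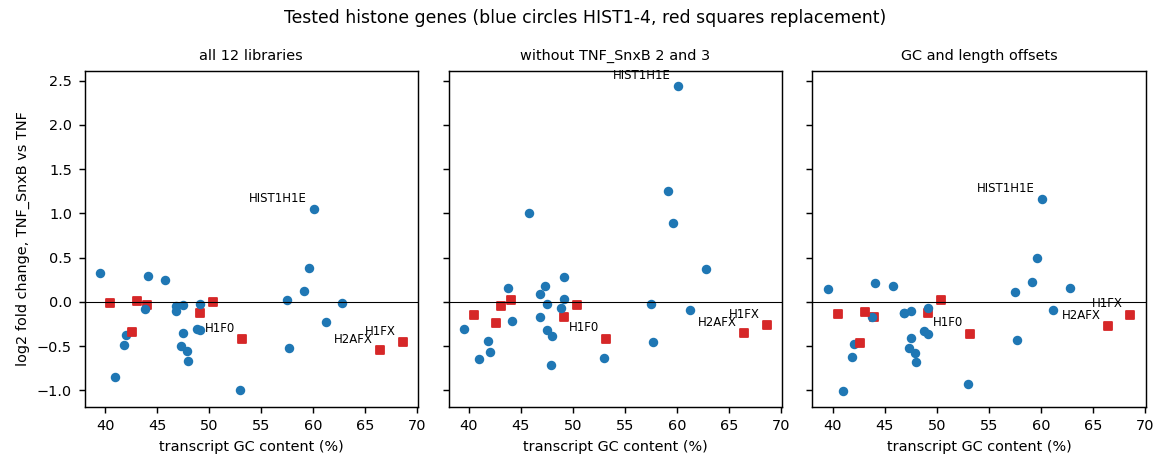
Log2 fold change in TNF_SnxB against TNF of the 34 tested histone genes against the GC content of their transcripts, from all libraries, without TNF_SnxB replicates 2 and 3, and with offsets for GC content and length. H1FX and H2AFX, at the right edge, move from -0.45 and -0.54 towards 0 in the other panels, and H1F0 stays between -0.43 and -0.36.

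The other genes called in this comparison were not called from replicate 1 alone. HIST1H2BK (ENSG00000197903.7, chromosome 6, 27146418 to 27146798) stood at 82.6, 88.9 and 82.5 CPM in DMSO, 82.1, 78.6 and 86.9 in SnxB, 84.1, 82.7 and 88.8 in TNF, and 78.9, 72.1 and 66.9 in TNF_SnxB. Its log2 change against TNF was -0.23 (SE 0.0558, edgeR adjusted p = 0.00323), -0.10 from replicate 1 alone (adjusted p = 0.569) and -0.10 with the offsets (adjusted p = 0.132). H2AFJ, which encodes H2A.J (ENSG00000246705.4, chromosome 12, 14774383 to 14778002), stood at 13.3, 13.9 and 11.2 CPM in DMSO, 11.9, 12.6 and 11.7 in SnxB, 12.3, 13.1 and 15.7 in TNF, and 11.4, 11.0 and 9.86 in TNF_SnxB. Its log2 change was -0.34 (SE 0.102, adjusted p = 0.0134), -0.24 from replicate 1 alone (adjusted p = 0.541) and -0.46 with the offsets (adjusted p = 0.000648).

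HIST3H2BB, an H2B gene beside HIST3H2A (ENSG00000196890.4, chromosome 1, 228458107 to 228460470), stood at 3.47, 3.75 and 2.76 CPM in DMSO, 2.39, 3.03 and 1.38 in SnxB, 3.43, 3.57 and 3.79 in TNF, and 2.31, 1.84 and 1.43 in TNF_SnxB. Its log2 change against TNF was -0.99 (SE 0.21, edgeR adjusted p = 0.00114), -0.64 from replicate 1 alone (adjusted p = 0.382) and -0.93 with the offsets (adjusted p = 0.000991). HIST2H2BC is an H2B pseudogene that overlaps HIST2H2BD on the opposite strand (ENSG00000261716.2, chromosome 1, 149844498 to 149850937). It stood at 0.955, 1.52 and 0.948 CPM in DMSO, 0.798, 0.758 and 0.529 in SnxB, 1.11, 1.33 and 1.76 in TNF, and 0.878, 0.479 and 0.929 in TNF_SnxB. Its log2 change was -0.85 (SE 0.3, adjusted p = 0.0347), lost in 6 of 19 alternatives, among them without TNF replicate 2, TNF replicate 3, TNF_SnxB replicate 2 or TNF_SnxB replicate 3 (adjusted p up to 0.673). It was -0.64 from replicate 1 alone and -1.01 with the offsets (adjusted p = 0.0194).

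The most abundant histone genes without a call against TNF were H3F3B, H2AFY and H2AFV. H3F3B (ENSG00000132475.10, chromosome 17, 75776434 to 75785893) stood at 720.1, 706 and 712 CPM in DMSO, 679.7, 676 and 684 in SnxB, 722, 727 and 706 in TNF, and 703, 730.3 and 717 in TNF_SnxB. H2AFY, which encodes macroH2A1 (ENSG00000113648.16, chromosome 5, 135333900 to 135399914), stood at 409, 413 and 402 CPM in DMSO, 411, 415 and 410.2 in SnxB, 427, 415 and 404 in TNF, and 422, 391 and 399 in TNF_SnxB. H2AFV, the other H2A.Z gene (ENSG00000105968.18, chromosome 7, 44826791 to 44848083), stood at 175, 172 and 184 CPM in DMSO, 169, 179 and 169 in SnxB, 175, 179 and 173 in TNF, and 172, 176 and 183 in TNF_SnxB. Groups overlapped for H2AFY and H2AFV throughout, and for H3F3B the SnxB libraries were the lowest 3 of the 12. With the offsets H2AFY (-0.18, edgeR adjusted p = 0.000298), H2AFV (-0.12, adjusted p = 0.00737) and H3F3A, the other H3.3 gene (-0.14, adjusted p = 0.014), were called lower against TNF, and none of the 3 was from replicate 1 alone.

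HIST1H1C (ENSG00000187837.3, chromosome 6, 26055787 to 26056428) stood at 33.9, 37.7 and 34.4 CPM in DMSO, 31.7, 33.8 and 33.8 in SnxB, 34.2, 33.1 and 36.6 in TNF, and 33.6, 35.0 and 35.1 in TNF_SnxB. HIST1H4I (ENSG00000276180.1, chromosome 6, 27138588 to 27139881) stood at 31.5, 34.1 and 36.4 CPM in DMSO, 32.9, 29.4 and 29.2 in SnxB, 32.8, 31.4 and 29.8 in TNF, and 27.8, 33.5 and 29.1 in TNF_SnxB. Neither was called in any of the 5 comparisons.

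TNF_SnxB replicate 1 stood apart in the sum of the low HIST1-4 genes and in some of them. It held 249 CPM of the 10 tailless RNAs, against 8.71 to 50.8 CPM in the other 11 libraries. The 24 HIST1-4 genes below the filter summed to 13.1 CPM there and to 3.93 to 6.94 CPM elsewhere. HIST1H1E, a linker histone gene of the chromosome 6 cluster with no poly(A) signal in its model, stood at 1.74, 0.911 and 0.431 CPM in DMSO, 0.228, 1.04 and 0.952 in SnxB, 0.332, 0.754 and 0.528 in TNF, and 3.62, 0.399 and 0.715 in TNF_SnxB. TNF_SnxB replicate 1 was the highest of the 12 and the other 2 libraries of its group lay within the range of the other groups.

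HIST1H4B stood at 1.76 CPM in that library and at most 0.222 CPM in the others, and HIST1H4C at 1.87 CPM against at most 0.568. Over all 3 libraries HIST1H1E had a log2 change of 1.05 against TNF (edgeR adjusted p = 0.127), and the other 2 genes were below the filter. From replicate 1 alone HIST1H1E, HIST1H4B and HIST1H4C had 2.44, 3.85 and 2.32 against TNF. HIST1H4B and HIST1H4C, at 16 and 17 counts there, passed the filter of that fit only through replicate 1. A high level in that library was thus a condition of their entry. The part of tailless RNA in the values of these genes was not tested. By contrast, the 16 genes with a poly(A) signal summed to 97.6, 90.9 and 96.1 CPM in TNF_SnxB, with replicate 1 close to the other 2, against 117, 116 and 119 in TNF.

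**Figure D5:**
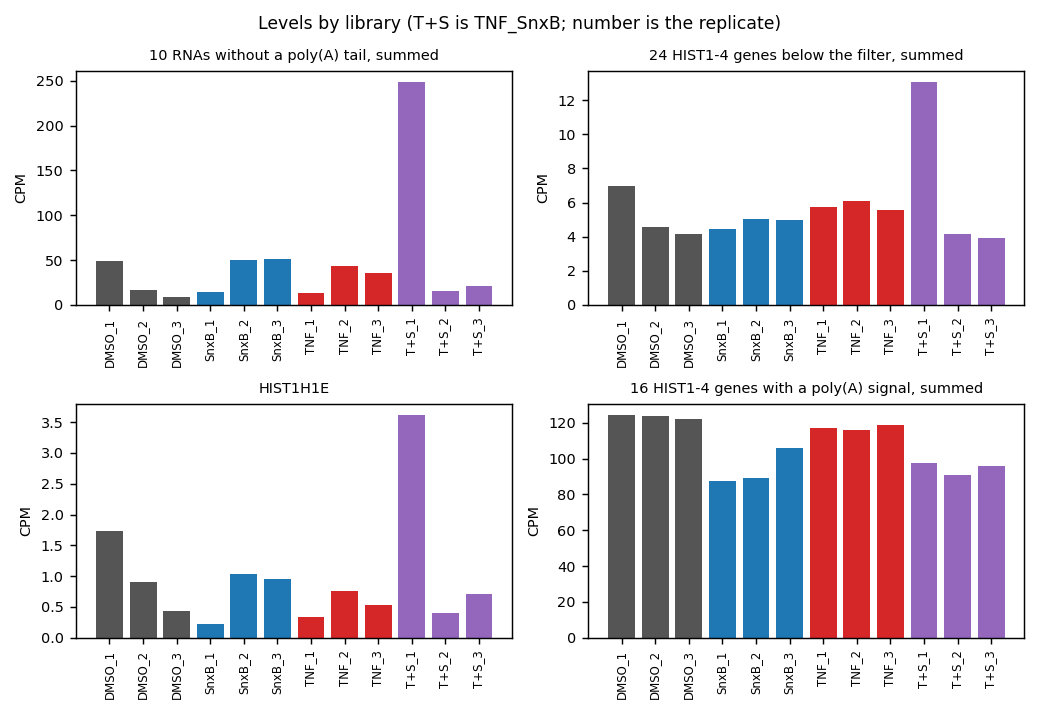
CPM in each of the 12 libraries for 10 RNAs without a poly(A) tail (summed), the 24 HIST1-4 genes below the filter (summed), HIST1H1E, and the 16 HIST1-4 genes with a poly(A) signal (summed); bars start at 0 and colours mark the groups. TNF_SnxB replicate 1 stands highest in the first 3 panels (249, 13.1 and 3.62 CPM) and not in the last (97.6 CPM).

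Summed over the class, HIST1-4 genes stood at 265, 243 and 238 CPM in TNF_SnxB, below the 3 TNF libraries, and replacement genes at 2552, 2536 and 2509 CPM, below the 2794, 2808 and 2784 of TNF. The median log2 change against TNF was -0.10 for the 25 HIST1-4 genes and -0.13 for the replacement genes, beside 0.00 over all genes.

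Adding TNF-α to cells under Senexin B gave 3 called genes of 34, all lower in TNF_SnxB than in SnxB, where 14.2% of all genes were called and 6.83% were called lower. They were H1FX (log2 -0.27, edgeR adjusted p = 0.00381), H2AFX (-0.27, adjusted p = 0.00438) and HIST1H2BK (-0.19, adjusted p = 0.0315, with overlapping groups). From TNF_SnxB replicate 1 alone the values were -0.08, -0.07 and -0.06 (adjusted p = 0.713, 0.72 and 0.859), and with the offsets for GC content and length they were 0.00, -0.04 and -0.03. None of the 3 was called under either. From TNF_SnxB replicate 1 alone HIST1H4B, HIST1H1E and HIST1H4C lay higher than in SnxB, with log2 changes of 4.495, 2.233 and 2.027. HIST1H4B and HIST1H4C passed the filter of that fit only through replicate 1. Over all libraries the HIST1-4 and replacement medians were 0.00 and -0.03.

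The interaction compared the TNF-α effect with and without Senexin B, and 2 of 34 genes passed, both below 0, beside 2.5% of all genes in either direction and 1.61% below 0. H1FX had a difference in log2 change of -0.40 (SE 0.0796, edgeR adjusted p = 0.0224) and H2AFX of -0.39 (SE 0.081, adjusted p = 0.0265). With the offsets they were -0.02 (adjusted p = 0.942) and -0.07 (adjusted p = 0.674), and from TNF_SnxB replicate 1 alone -0.21 (adjusted p = 0.255) and -0.19 (adjusted p = 0.218). Each call was lost in 13 of 19 alternatives. No HIST1-4 gene was called by edgeR, and 3 had an unadjusted p under 0.05.

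Genes that act on histone mRNA or histones were described from lists. Of 15 genes of histone mRNA 3′-end formation and decay, SLBP, whose protein binds the stem-loop, was the only one called in SnxB against DMSO. It stood at 178, 180.2 and 179 CPM in DMSO, 148, 144 and 154 in SnxB, 166, 177 and 177 in TNF, and 149, 154 and 143 in TNF_SnxB, with no overlap between libraries with and without the inhibitor. Its log2 change was -0.27 against DMSO (edgeR adjusted p = 0.000224) and -0.23 against TNF (adjusted p = 0.000359), and it was also called from TNF_SnxB replicate 1 alone.

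Of 16 S phase genes, 2 fell in SnxB against DMSO: RRM2, a subunit of ribonucleotide reductase (log2 -0.37, edgeR adjusted p = 2.61e-07), and UNG, a uracil DNA glycosylase (-0.21, adjusted p = 0.0016). The median of the 16 was -0.08, and whether fewer cells were in S phase was not tested. With the offsets 8 S phase genes were called, all lower, and without TNF_SnxB replicates 2 and 3 in the fit 6, all lower, beside the 6.08% and 5.66% of all genes called in those fits. Among 11 genes of histone gene transcription, such as NPAT and CCNE1, 16 histone chaperones and 2 tested genes of 9 other histone variants, none was called by edgeR in this comparison. At an unadjusted p under 0.05 there were 2, 4 and 1. The offsets and the fit without those 2 libraries each called 4 chaperones lower (NASP, SUPT16H, NAP1L1 and NAP1L4) and POU2F1, the octamer-binding factor Oct-1, higher. The offsets also called SRRT, a 3′-end gene, lower (-0.10, edgeR adjusted p = 0.0484). No gene of the 5 lists was called in TNF against DMSO by edgeR, where the unadjusted counts were 1 for 3′-end genes, 0 for transcription, 1 for chaperones, 1 for S phase and 0 for other variants. With the offsets none was called either, and without TNF_SnxB replicates 2 and 3 in the fit MCM2, MCM7 and TYMS of the S phase list were called higher (0.08, 0.07 and 0.09) and the chaperone ANP32E lower (-0.09), where 5.62% of all genes were called.

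In TNF_SnxB against TNF, with its background of 27.2%, 7 S phase genes fell, led by RRM2 (-0.27), CDT1 (-0.33), MCM7 (-0.21) and UNG (-0.17). With the offsets 8 S phase genes were called, all lower, beside 12.8% of all genes called and 9.8% called lower. Among 3′-end genes 6 rose and 4 fell (SLBP, SRRT, SYMPK and UPF1), and from replicate 1 alone SLBP remained the single call, while the offsets called 2 higher and 3 lower. Chaperones gave 3 higher and 3 lower, transcription genes 2 and 2, and CENPA, the centromeric H3 variant, rose by 0.30, and from replicate 1 alone none of these lists held a call. With the offsets chaperones gave 4 lower and none higher, transcription genes 1 higher and 2 lower, and CENPA was called higher (0.27). In TNF_SnxB against SnxB the counts were 2 higher and 1 lower for 3′-end genes, 2 higher for chaperones, and 1 higher and 2 lower for S phase. Over all genes 14.2% were called there and 6.83% were called lower, and with the offsets 4.73% were called. From replicate 1 alone these lists held no call, and with the offsets 1 3′-end gene and 2 transcription genes were called higher and no chaperone or S phase gene. In the interaction ANP32E and NAP1L1, both chaperones, were called with 0.30 and 0.24, beside 2.5% of all genes called. Neither was called with the offsets (0.12 and 0.06, adjusted p = 0.262 and 0.69) or from replicate 1 alone (0.18 and 0.11, adjusted p = 0.132 and 0.48). Of 5 tested HEK293 markers NEFL was called lower in SnxB against DMSO (-0.37), and 4 were called lower in TNF_SnxB against TNF, of which 2 from replicate 1 alone. In SnxB against DMSO 3 markers were called lower with the offsets and 3 without those 2 libraries.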

How the data were processed

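Raw counts per gene symbol were deposited by the authors for 12 libraries. Per the submitters' processing notes, STAR 2.4, SAMtools 1.2 and featureCounts of Subread 1.4.6 were used with hg38/GRCh38. The annotation, strand setting and treatment of multiply mapping reads were not given in the sources used here. Libraries held 8705277 to 50943310 counts.

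Counts were fitted with edgeR 4.0.16 in R 4.3.3 (TMM, filterByExpr, group means over all 12 libraries, glmQLFTest, two-sided), with Benjamini-Hochberg adjustment over 14822 genes and calls at 0.05. Each SE was derived from the test, as the absolute log2 change divided by the square root of the F statistic. The fit was tested on simulated data. Alternatives were DESeq2 1.42.0, other size factors, no filter, fewer groups, a replicate block, offsets for GC content and length (loess span 0.5, for the 90.8% of tested genes with a GC value) and libraries left out. Leaving out libraries of groups not compared was chosen after seeing the data. Gene models came from GENCODE release 29, promoters from RefSeq GRCh38.p14.

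Values by library are given for genes called in any comparison and the 5 highest of each class; list genes (3′-end formation, transcription, chaperones, S phase, other variants, tailless RNAs, HEK293 and other cell markers) are named when called, up to 4 per list. HIST1H1E, HIST1H4B and HIST1H4C, and the genes nearest to a call, were chosen after their values were seen. The genes, lists and tests were chosen with earlier results of these data known.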

Additional observations from a re-analysis of the deposited data

Results flagged for a closer look

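For H1FX and H2AFX the effect of TNF-α differed between cells with and without Senexin B. The interaction was -0.40 for H1FX and -0.39 for H2AFX on the log2 scale (edgeR adjusted p = 0.0224 and 0.0265). Both genes had log2 changes above 0 for TNF-α without the inhibitor (0.13 and 0.12, or 0.02 and 0.03 with the offsets for GC content and length) and were called lower with it (-0.27 and -0.27). TNF_SnxB replicates 2 and 3 were the lowest of the 12 libraries for both genes. Without them the interactions were -0.21 and -0.19, with the offsets -0.02 and -0.07, and each call was lost in 13 of 19 alternatives. The part of GC content was not tested beyond the offsets.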

How the results depend on the processing

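Of 1567 values of single genes under alternatives, 1474 kept their direction and side of the threshold, 28 passed it newly, 63 no longer passed it and 2 reversed: H2AFV in TNF_SnxB against TNF, 0.01 in the reported fit, was -0.12 with the offsets for GC content and length (adjusted p = 0.00737) and -0.12 with the replicate block and the offsets (adjusted p = 0.00702). Most of the 1567 belonged to genes not called in the comparison, and all 63 losses fell on calls of the reported fit. Losses per call ran from 0 of 20 alternatives (H1F0 in SnxB against DMSO, among others) to 13 of 19 (H1FX and H2AFX in the interaction). Genes called in SnxB against DMSO numbered 9 with only the groups compared, 11 with the offsets and 11 with the block and the offsets, and 10 without TNF_SnxB replicates 2 and 3; in TNF against DMSO 3 with only the groups compared and 3 without those libraries; in TNF_SnxB against SnxB 1 with the offsets (H3F3B, higher) and 1 with the block and the offsets; in the interaction 0 with the offsets, 0 with the block and the offsets, and 1 without those libraries (HIST1H1E, higher). Leaving out 1 library at a time gave 4 to 10 calls in SnxB against DMSO, 0 to 3 in TNF against DMSO, 8 to 15 in TNF_SnxB against TNF, 2 to 7 in TNF_SnxB against SnxB and 0 to 5 in the interaction. The highest counts of SnxB against DMSO, TNF against DMSO (3), TNF_SnxB against SnxB (7) and the interaction (5) came without TNF_SnxB replicate 1; the causes were not tested.

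Medians of the replacement genes were -0.082 (SnxB against DMSO), 0.027 (TNF against DMSO) and -0.012 (TNF_SnxB against SnxB) without the low-count filter. With the offsets they were -0.095 (SnxB against DMSO), -0.143 (TNF_SnxB against TNF) and -0.051 (interaction). With the block and the offsets they were -0.095, -0.147 and -0.051, and the HIST1-4 median in TNF_SnxB against TNF was -0.175. Without TNF_SnxB replicates 2 and 3 the replacement medians were -0.173 (TNF_SnxB against TNF), -0.069 (TNF_SnxB against SnxB) and -0.003 (interaction), and the HIST1-4 median in TNF_SnxB against SnxB was 0.236. Leaving out 1 library at a time, the HIST1-4 median ranged from -0.424 to -0.161 in SnxB against DMSO, -0.279 to -0.091 in TNF_SnxB against TNF, -0.156 to 0.06 in TNF_SnxB against SnxB and 0.025 to 0.155 in the interaction. The replacement median ranged from -0.091 to -0.049, -0.16 to -0.109, -0.066 to -0.021 and -0.032 to 0.063 in the same order.

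With H2AFX moved to the HIST1-4 class the sums were 557, 490.2, 571 and 446 CPM for DMSO, SnxB, TNF and TNF_SnxB, and 2517, 2332, 2509 and 2335 CPM for the replacement class. With raw library totals the replacement sums were 2590 CPM in SnxB and 2762 CPM in TNF. Replicate numbers did not pair the libraries, since correlations of same-numbered deviations ran from -0.053 to 0.121, and the replicate block alone gave the same numbers of calls (5, 1, 11, 3 and 2). At these depths 3 counts correspond to 0.0589 to 0.345 CPM, so the lowest HIST1-4 genes lie near the counting floor.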
